A study of Mus musculus with 28 samples.

Results

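Transcription factor genes that have been tied to the activated state of microglia, 8 in all, were followed across genotype and housing. They are *Mitf*, *Tfec* and *Tfe3* of the MiT/TFE family, *Bhlhe40* and *Bhlhe41*, *Hif1a*, *Myc* and *Hhex*. They were chosen by name, and all 8 were found among the 48587 genes of the count table and passed the filter on low counts. Each of the 28 libraries holds RNA of the FACS-sorted CD11b+CD45low hippocampal microglia of 1 male mouse. The sort also excluded cells stained for markers of other lineages, Ly6C and Ly6G among them. Among WT mice 5 were SPF, 4 GF and 5 ABX, and among 5xFAD mice 3 were SPF, 5 GF and 6 ABX, all 16 weeks old and on a C57BL/6 J background. 5xFAD mice are heterozygous for human APP with the Swedish, Florida and London mutations and for mutant human PS1, both driven by the neuron-specific Thy-1 promoter, and WT mice are littermates without the transgenes. SPF mice were kept specific pathogen-free, GF mice were germ-free, and ABX mice were SPF mice given vancomycin, cefoxitin, gentamicin and metronidazol in drinking water for 8 weeks. Since GF mice were obtained from Bern and all others from Freiburg, germ-free housing cannot be told apart from the source.

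MITF, TFEC and TFE3 are basic helix-loop-helix leucine zipper proteins that bind E-box and related motifs in genes of lysosomes and of cell differentiation. In macrophages and osteoclasts they are known for switching on lysosomal and bone-resorbing genes, and nutrient-sensing Rag GTPases and folliculin at the lysosome hold them in the cytoplasm. BHLHE40 and BHLHE41 are repressors of clock genes and are known for their part in macrophage proliferation. HIF1A is the oxygen-regulated subunit of the hypoxia-inducible factor and drives glycolysis genes, MYC with its partner MAX drives growth genes, and HHEX is a homeobox repressor that works with Groucho/TLE proteins. A shared feature of several of these factors is the DNA word they bind: CACGTG is the E-box of the MiT/TFE, MYC and BHLHE40/41 proteins, and ACGTG is the core of the HIF site.

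Promoter windows from RefSeq (GRCm38.p6, 250 bases before to 50 after a start site) were at hand for 6 of the 8 genes, in 9 windows. CACGTG, searched on both strands, lay in the windows of *Bhlhe41* and *Hif1a* and in 7.15% of all 32851 promoter windows. ACGTG, which overlaps CACGTG, lay in 19.6% of all windows and, among the factors, also in a window of *Mitf*. Below are the stretches of both CACGTG-bearing windows that lie upstream of the annotated first exon or start site, 5′ to 3′ on the strand of the gene, with matches to ACGTG on either strand in capitals. They are shown because both hold CACGTG, the word that several factors of the group bind. A match describes the letters and not a bound site.
Bhlhe41: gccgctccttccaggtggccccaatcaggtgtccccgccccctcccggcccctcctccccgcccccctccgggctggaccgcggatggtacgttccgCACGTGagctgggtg
Hif1a: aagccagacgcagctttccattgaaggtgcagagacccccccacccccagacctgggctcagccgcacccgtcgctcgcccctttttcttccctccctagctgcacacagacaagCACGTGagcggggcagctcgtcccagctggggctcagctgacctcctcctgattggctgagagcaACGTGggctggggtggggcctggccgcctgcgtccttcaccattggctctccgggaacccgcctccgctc
The *Bhlhe41* stretch is chr6:145865559-145865670 on the minus strand, 112 bases whose CACGTG starts at base 98. The *Hif1a* stretch is chr12:73907617-73907866 on the plus strand, 250 bases whose CACGTG starts at base 116, and in GENCODE M21 it lies inside the gene, since a longer transcript starts upstream at 73901375.

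On GRCm38 the genes stand at chr6:97807052-98021349 (*Mitf*, plus strand), chr6:16833373-16898441 (*Tfec*, minus), chrX:7762560-7775202 (*Tfe3*, plus), chr6:108660629-108666925 (*Bhlhe40*, plus), chr6:145858243-145865558 (*Bhlhe41*, minus), chr12:73901375-73947530 (*Hif1a*, plus), chr15:61985341-61990374 (*Myc*, plus) and chr19:37434810-37440731 (*Hhex*, plus). The library kit does not mark the strand, so reads of overlapping antisense genes cannot be told apart from those of the factor. Such neighbours of *Bhlhe40* and *Hif1a* held at most 5 and 43 reads in a library, and an overlapping gene at *Bhlhe41* at most 132. A protein-coding gene on the strand of *Hif1a*, *Gm49321*, also overlaps it, and no read count was at hand for that gene.

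The 28 libraries held 14441610 to 29977395 reads assigned to genes. No pair of mice of a group was near to a copy (chi-square per degree of freedom at least 6.52 over genes). Markers of microglia (*P2ry12*, *Tmem119*, *Cx3cr1*, *Csf1r* and *Sall1*) summed to between 23600 and 40460 CPM, that is reads per 1000000 reads of the library total, in all 28 mice. In each housing the sum was lower in 5xFAD than in WT mice without overlap. It was 29800 to 30460 against 36400 to 39020 CPM in SPF mice, 23600 to 30660 against 34420 to 39050 in GF mice and 27520 to 32940 against 34010 to 40460 in ABX mice. Libraries differed in other cell types: the summed level of 8 neutrophil genes was 263, 189.9 and 61.1 CPM in the SPF 5xFAD mice and 144 CPM in mouse FAD_ABX_1151, and at most 0.708 CPM in the other 24 mice. These 4 mice also share a numbering style of the library descriptions, one of 3, that no other mouse has. The SPF and ABX groups of WT mice have another style, and the remaining style is that of every GF mouse and of 5 of 6 ABX 5xFAD mice, so numbering style and genotype cannot be told apart in SPF and ABX mice, while GF mice were compared within a style. Genes of border-associated macrophages (7 genes) summed to 34.0 to 253 CPM in ABX 5xFAD mice against 3.80 to 5.90 CPM in ABX WT mice, to 16.1 to 29.2 against 3.48 to 8.15 CPM in SPF mice and to 10.0 to 81.0 against 10.7 to 43.9 CPM in GF mice. Monocyte genes (5 genes) summed to 14.35 to 51.95 CPM in ABX 5xFAD against 3.753 to 9.317 CPM in ABX WT mice. The ranges were 15.96 to 38.98 against 6.757 to 8.568 CPM in SPF mice and 6.021 to 24.94 against 3.717 to 16.93 CPM in GF mice. The description of mouse FAD_GF_201 says WT, but its title and genotype label say 5xFAD, and it was counted with the GF 5xFAD mice. In bulk RNA of sorted cells, fewer cells of a type and less RNA per cell cannot be told apart.

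The levels of the 8 genes spanned several orders of magnitude. Per kilobase of exon, *Hhex* was the most abundant, with group means of 98.1 to 121 CPM per kb. *Hif1a* came next with 23.6 to 72.7, except in GF WT mice, where *Tfe3* was above it (29.0 against 23.6). *Tfe3* had 22.6 to 29.0, *Myc* 13.3 to 31.2 and *Bhlhe41* 13.6 to 20.2 CPM per kb. *Mitf* was low at 3.80 to 5.14 CPM per kb, *Bhlhe40* ran from 0.123 to 12.5, and *Tfec* did not exceed 0.182. Of *Mitf*, *Tfec* and *Tfe3*, the last was thus the most abundant in every group on the per-length scale. From the lowest to the highest mouse, TMM-scaled CPM of *Tfe3* differed 1.55-fold and of *Hhex* 1.58-fold, whereas *Hif1a* differed 4.01-fold and *Myc* 4.12-fold.

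**Figure D1:**
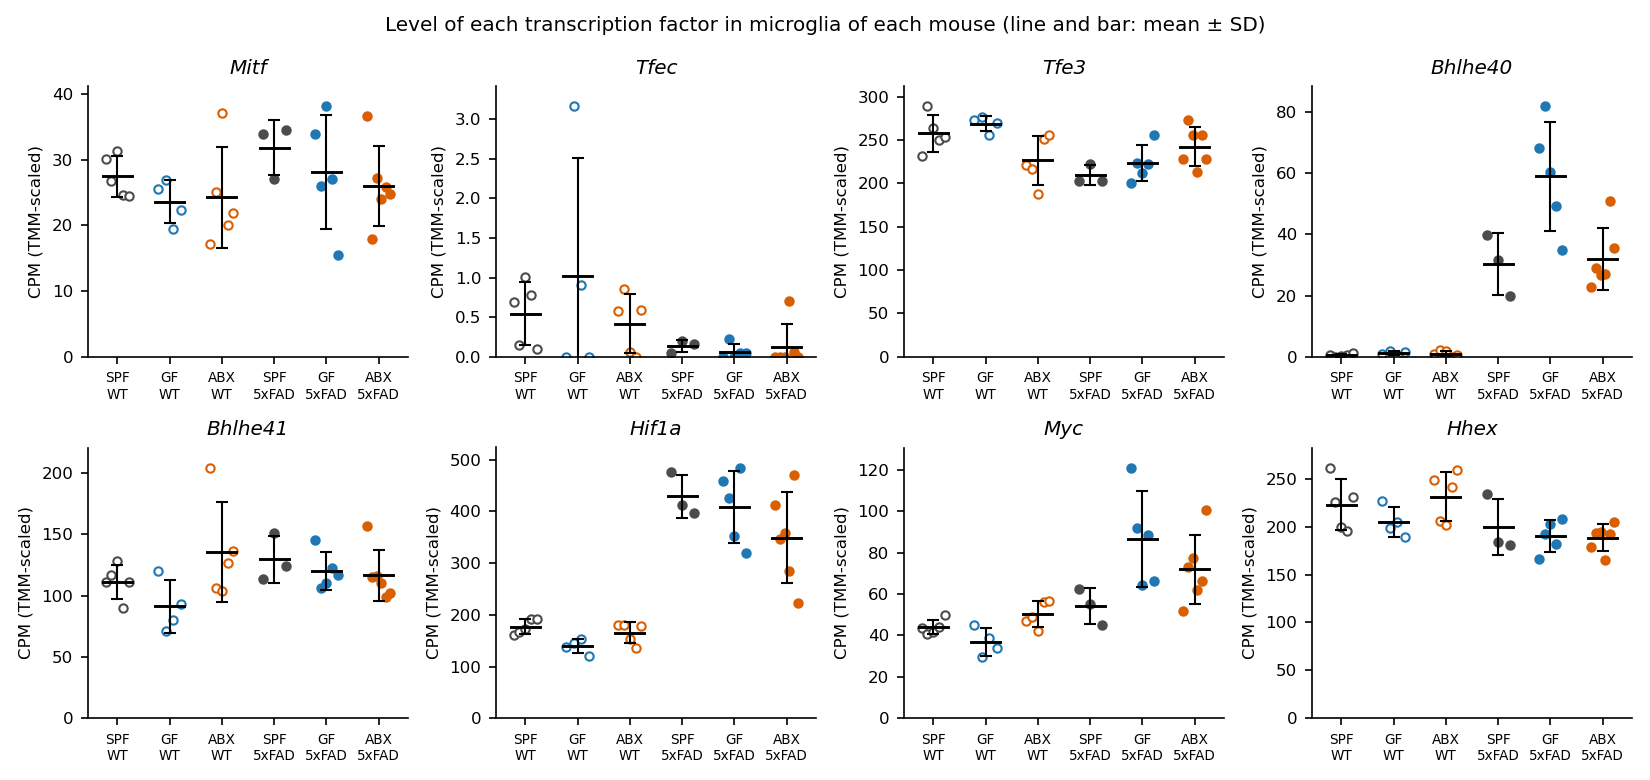
Level of each transcription factor (TMM-scaled CPM, vertical axes from 0, a different range in each panel) in microglia of each mouse, by group on the horizontal axis. Open points are WT and filled points 5xFAD mice, and lines and bars give the mean and SD of a group, with bars of *Tfec* cut at 0. *Bhlhe40* is near 0 in all WT groups and between 19.7 and 81.9 CPM in 5xFAD mice, *Hif1a* is separated by genotype in every housing condition, and *Myc* is highest in GF 5xFAD mice.

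Microglia from 5xFAD mice were first compared with those from WT mice of the same housing, which asks how each factor differs with amyloid pathology. *Bhlhe40* and *Hif1a* rose in all 3 housing conditions, *Myc* rose in GF and ABX mice, *Tfe3* fell in GF mice and *Hhex* fell in ABX mice. In edgeR's quasi-likelihood fit, 2 of the 8 had a Benjamini-Hochberg adjusted p under 0.05 in SPF mice, where 4.57% of all 15298 tested genes passed. In GF mice 4 of 8 passed against 15.6% of all genes, in ABX mice 4 of 8 against 14.4%, and for the average over the 3 conditions 6 of 8 against 25.1%.

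*Bhlhe40*, a repressor of clock genes, changed most of the 8. SPF WT mice had 0.0767, 0.335, 0.474, 0.612 and 1.403 CPM, and SPF 5xFAD mice 19.7, 31.6 and 39.7 CPM. GF WT mice had 0.644, 0.895, 1.55 and 1.86 CPM, and GF 5xFAD mice 34.99, 49.1, 60.3, 68.3 and 81.9 CPM. ABX WT mice had 0, 0.626, 0.801, 1.78 and 2.12 CPM, and ABX 5xFAD mice 22.7 at the lowest, 27.9 at the median and 50.8 at the highest. The genotypes did not overlap in any condition, and each 5xFAD mouse, including FAD_GF_201 with 34.99 CPM, lay above each WT mouse. Among all tested genes, 9.44% were higher without overlap in SPF mice, 9.26% in GF mice and 4.77% in ABX mice. Group means differed 52.3-fold in SPF, 47.6-fold in GF and 30.03-fold in ABX mice. The log2 fold change was 5.71 (SE 0.516, adjusted p = 3.5e-09) in SPF mice, 5.60 (SE 0.523, adjusted p = 3.8e-09) in GF mice and 4.97 (SE 0.466, adjusted p = 4.65e-09) in ABX mice. WT levels rest on few reads, between 0 and 32 in a library, so the size of the fold is less certain than its direction. The ABX change was 5.05 without mouse FAD_ABX_1151. Neutrophil genes were high in all SPF 5xFAD mice and reached at most 0.0495 CPM in GF 5xFAD mice. Their part in the rise of *Bhlhe40* was not tested.

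*Bhlhe41*, the close relative of *Bhlhe40*, stayed near 100 CPM and did not pass the test between genotypes in any condition. SPF WT mice had 90.2 to 128 CPM and SPF 5xFAD mice 114 to 151 CPM. In GF mice, WT values ran from 71.1 to 119.9 CPM and 5xFAD values from 106 to 146 CPM, a log2 difference of 0.40 (SE 0.171, adjusted p = 0.119). It passed there with offsets for gene length (0.49, adjusted p = 0.0344) and without mouse WT_GF_199 (0.56, adjusted p = 0.0378). ABX WT mice had 104 to 204 CPM and ABX 5xFAD mice 98.8 to 157 CPM, and the sign of the difference was negative (-0.22, SE 0.153, adjusted p = 0.386).

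Of 12 clock genes that BHLHE40 and BHLHE41 are known to act on or with, none passed between genotypes in SPF mice by edgeR (2 at an unadjusted p under 0.05), 1 fell in GF mice (*Cry1*, -0.68, adjusted p = 0.0133), and 1 rose (*Cry2*, 0.60, adjusted p = 0.034) and 1 fell (*Arntl*, -0.62, adjusted p = 0.0247) in ABX mice. These 3 genes are named after their values were seen. The median log2 fold change of the 12 genes was -0.24, -0.26 and -0.12 in SPF, GF and ABX mice, beside medians of all tested genes of -0.03, -0.03 and -0.01. These medians span genes that rose and genes that fell, so they do not tell how far single clock genes moved. *Tef*, the most abundant of them and an activator of clock output, had log2 fold changes of -0.32 both in SPF and GF mice that did not pass (adjusted p = 0.211 and 0.0648).

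*Hif1a*, the regulated subunit of hypoxia-inducible factor, rose in all conditions. SPF WT mice had 160.4, 167, 173, 192 and 193 CPM, and SPF 5xFAD mice 397, 413 and 477 CPM. GF WT mice had 121, 138, 146 and 153 CPM, and GF 5xFAD mice 319.5, 353, 425, 459 and 485 CPM. ABX WT mice had 136, 154, 178, 179.5 and 180.3 CPM, and ABX 5xFAD mice 224 at the lowest, 353 at the median and 469.6 at the highest. Genotypes did not overlap in any condition, and the lowest 5xFAD value, that of mouse FAD_ABX_1482, was above the highest WT value. The log2 fold change was 1.28 (SE 0.158, adjusted p = 1.34e-06) in SPF, 1.55 (SE 0.154, adjusted p = 1.45e-08) in GF and 1.076 (SE 0.137, adjusted p = 1.29e-06) in ABX mice. Group means differed 2.42-fold, 2.93-fold and 2.11-fold. Neutrophil genes in SPF 5xFAD mice and border macrophage genes in ABX 5xFAD mice were above those of WT mice. Their part in the rise of *Hif1a* was not tested.

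Most of the tested partners and enzymes of the HIF pathway did not pass between genotypes, which does not show that they stayed unchanged. Shares of all tested genes that passed were 4.57% (SPF), 15.6% (GF) and 14.4% (ABX). Of 8 tested regulators, 2 rose in each of the 3 conditions, *Egln3*, a prolyl hydroxylase that marks HIF for decay (4.28, 4.48 and 4.38), and *Arnt2*, a paralog of the partner ARNT, both named after their values were seen. *Arnt*, which encodes the usual partner of HIF1A, fell in GF mice (-0.35, SE 0.112, adjusted p = 0.0323), and *Vhl*, whose product targets HIF for decay, had -0.25 in SPF mice (adjusted p = 0.26). The median of the 8 was -0.11, -0.08 and -0.05, against -0.03, -0.03 and -0.01 over all tested genes. By edgeR, the unadjusted p was under 0.05 for 3 (SPF), 4 (GF) and 2 (ABX) of the 8.

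Of 17 tested HIF target genes, 5 rose in SPF mice, 8 in GF mice and 7 in ABX mice, and 1 fell in ABX mice. Their median log2 fold change was 0.43, 0.50 and 0.42. *Aldoa*, an enzyme of glycolysis, rose by 0.64 in SPF mice, 0.98 in GF mice and 0.70 in ABX mice (adjusted p = 0.00087, 2.97e-07 and 1.67e-05). *Ldha*, which makes lactate, rose by 0.79, 1.03 and 0.70, and *Pgk1*, also of glycolysis, by 0.95, 1.11 and 0.80. The glucose transporter gene *Slc2a1* rose by 0.53, 0.80 and 0.63, and *Egln3* is the fifth gene that passed in all 3 conditions. These were named after their values were seen, apart from *Aldoa*, and *Egln3* is counted in both HIF lists. *P4ha1*, the most abundant target on the list and a collagen-modifying enzyme gene, had 0.15, -0.08 and -0.25 and did not pass.

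*Myc* was higher on average in 5xFAD than in WT mice of each housing, and passed in GF and ABX mice. By edgeR its interactions of genotype with housing, given below, did not pass. SPF WT mice had 40.8, 41.7, 43.7, 44.0 and 49.9 CPM, and SPF 5xFAD mice 45.0, 55.0 and 62.5 CPM. GF WT mice had 29.4, 33.8, 38.6 and 45.1 CPM, and GF 5xFAD mice 64.3, 66.1, 88.7, 91.8 and 121 CPM. ABX WT mice had 42.0, 47.0, 48.8, 56.2 and 56.7 CPM, and ABX 5xFAD mice 52.0 at the lowest, 69.5 at the median and 100.4 at the highest. Genotypes were apart only in GF mice; in SPF and ABX mice the ranges overlapped, in ABX mice through mouse FAD_ABX_1151 with 52.0 CPM. The log2 fold change was 0.30 (SE 0.186, adjusted p = 0.544) in SPF, 1.23 (SE 0.177, adjusted p = 7.87e-06) in GF and 0.52 (SE 0.156, adjusted p = 0.0238) in ABX mice. The GF change kept an adjusted p of at most 0.000799 under every alternative. The ABX change did not pass with offsets for GC content (0.42, adjusted p = 0.0619) or without mouse WT_ABX_909 (adjusted p = 0.0539), WT_ABX_911 (adjusted p = 0.0735) or FAD_ABX_1482 (adjusted p = 0.077).

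The MYC network holds MAX partners and antagonists, and 12 of its genes were tested. Of these, 1 rose and 1 fell in SPF mice, 2 fell in GF mice and 1 rose in ABX mice. Among all tested genes, 4.57%, 15.6% and 14.4% passed in the same order. The GF count, 2 of 12, is near its share, and the ABX count, 1 of 12, is below it. *Mycl*, a relative of *Myc*, fell by 0.92 on the log2 scale in SPF mice and by 0.97 in GF mice, *Mxd1*, a MAX-binding antagonist, fell by 0.66 in GF mice, and *Mxd3*, of the same family, rose by 2.34 in SPF and 2.14 in ABX mice. These 3 were named after their values were seen. Of 17 growth genes known as MYC targets, 0 passed in SPF mice by edgeR (2 at an unadjusted p under 0.05), 3 rose in GF and 5 rose in ABX mice, with medians of 0.11, 0.23 and 0.27. The count in GF mice, 3 of 17, is near the share of 15.6% over all genes. *Nme1*, a nucleotide kinase gene, rose by 0.91 in GF mice (adjusted p = 8.63e-05), and *Cdk4*, a cell cycle kinase gene, by 0.31 in GF and 0.40 in ABX mice (adjusted p = 0.0293 and 0.00257). *Ncl*, which encodes nucleolin and is the most abundant gene of the list, had 0.29, 0.13 and 0.05 and did not pass.

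**Figure D2:**
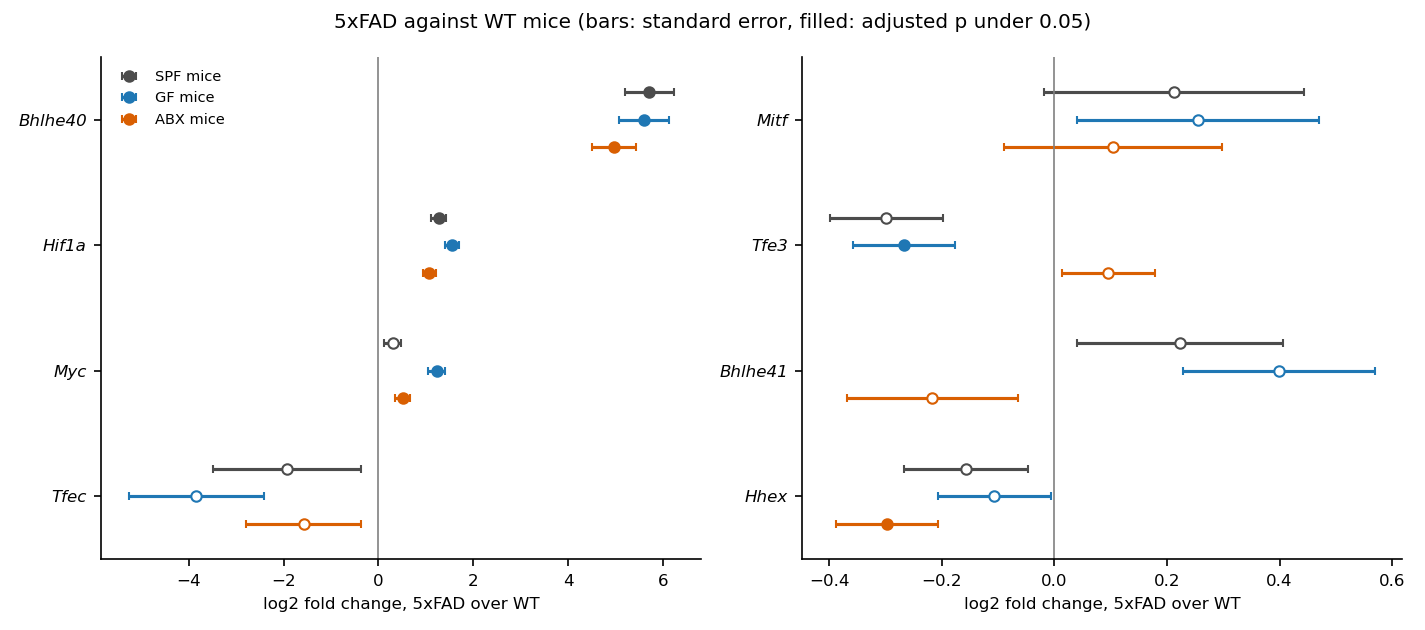
Log2 fold change of 5xFAD over WT mice (horizontal axis) for the 8 factors in SPF (grey), GF (blue) and ABX mice (orange), with bars for the standard error and filled points for an adjusted p under 0.05. The panels have different ranges: *Bhlhe40* lies between 4.97 and 5.71 and *Hif1a* between 1.076 and 1.55, while *Mitf*, *Tfe3*, *Bhlhe41* and *Hhex* lie between -0.30 and 0.40.

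Of the MiT/TFE family, *Mitf* differed little between genotypes, its log2 fold change being 0.21 (SE 0.231, adjusted p = 0.808) in SPF, 0.26 (SE 0.215, adjusted p = 0.481) in GF and 0.10 (SE 0.194, adjusted p = 0.786) in ABX mice. Its levels ran from 24.5 to 31.4 CPM in SPF WT and from 27.1 to 34.5 CPM in SPF 5xFAD mice, and from 19.5 to 26.9 and from 15.6 to 38.2 CPM in GF mice. In ABX mice the ranges were 17.1 to 37.1 CPM in WT and 17.9 to 36.6 CPM in 5xFAD mice. The highest ABX 5xFAD value was that of mouse FAD_ABX_1151, and the log2 fold change was -0.02 without it.

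*Tfe3* was lower in SPF 5xFAD mice (202 to 223 CPM) than in SPF WT mice (232 to 289 CPM) with no overlap, as 7.5% of all tested genes were, but the log2 fold change of -0.30 (SE 0.100, adjusted p = 0.0943) did not pass. In GF mice it ran from 256 to 276 CPM in WT and from 200.9 to 256.3 CPM in 5xFAD mice, and its log2 fold change of -0.27 passed narrowly (SE 0.091, adjusted p = 0.0434). It was 0.10 in ABX mice (SE 0.0825, adjusted p = 0.497), where WT mice had 187 to 256 and 5xFAD mice 213 to 272 CPM. The average over conditions was -0.16 (SE 0.0527, adjusted p = 0.0277). This average did not pass with offsets for gene length (-0.12, adjusted p = 0.14) or with no filter on low counts (adjusted p = 0.0723). Nor did it pass without any one of WT_SPF_925, FAD_SPF_1144, FAD_SPF_1148 and FAD_GF_181 (adjusted p = 0.0501 to 0.0772). The GF change did not pass with offsets for gene length (-0.15, adjusted p = 0.338), with no filter on low counts (adjusted p = 0.0738) or without any one of 10 single mice, among them WT_GF_229 (adjusted p = 0.099) and FAD_GF_181 (adjusted p = 0.121), and the SPF difference passed under voomWithQualityWeights (-0.31, adjusted p = 0.00241).

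*Tfec*, which in other tissues is confined to macrophage lineages, was at the limit of detection, with 0 to 51 reads in a library. A count of 3 reads corresponded to 0.0988 to 0.198 CPM. WT mice had 0.0935 to 1.01 CPM in SPF, 0 to 3.17 in GF and 0 to 0.859 in ABX groups, and 5xFAD mice 0.0543 to 0.197, 0 to 0.227 and 0 to 0.701 CPM. No reads were found in 3 of 14 WT and 6 of 14 5xFAD mice. The fit gave an average log2 fold change of -2.45 (SE 0.821, adjusted p = 0.0276), which did not pass under voomWithQualityWeights (-1.89, adjusted p = 0.084), under voom (-1.75, adjusted p = 0.108) or without mouse WT_GF_229 (-1.88, adjusted p = 0.0969) or any single SPF 5xFAD mouse (adjusted p = 0.0541 to 0.076). In single conditions it did not pass (adjusted p = 0.701, 0.0665 and 0.434 in SPF, GF and ABX mice), but it did in ABX mice without mouse FAD_ABX_1455 (adjusted p = 0.0377) and in GF mice without FAD_GF_182 (adjusted p = 0.0428), WT_GF_199 (adjusted p = 0.0451), WT_GF_231 (adjusted p = 0.0462) or FAD_ABX_1455 (adjusted p = 0.0372). It is not a firm difference at this depth.

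Of 12 tested genes that hold MiT/TFE proteins at the lysosome or belong to the family, 1 rose in SPF mice, 6 in GF mice and 2 in ABX mice, and the medians were 0.09, 0.37 and 0.15. Beside them, 4.57%, 15.6% and 14.4% of all tested genes passed in these conditions. *Rragd*, a Rag GTPase gene, rose in all conditions (2.50, 2.48 and 2.27) and was named after its values were seen. *Rragc*, its paralog, rose by 0.48 in GF mice (adjusted p = 0.00482), as did the Ragulator subunit genes *Lamtor2* (0.52, adjusted p = 0.00809) and *Lamtor5* (0.51, adjusted p = 0.0149). *Flcn*, which encodes folliculin, had -0.22 in GF mice (adjusted p = 0.0797) and rose by 0.36 in ABX mice (adjusted p = 0.00186). Of 12 tested target genes of the family, 4 rose in SPF mice, 5 in GF mice and 7 in ABX mice, with medians of 0.34, 0.36 and 0.50. *Ctsd*, a lysosomal protease gene, rose by 1.06, 1.38 and 1.03 (adjusted p = 7.83e-10, 1.65e-12 and 5.62e-11), and *Clcn7*, a lysosomal chloride transporter gene, by 0.38 in GF and 0.57 in ABX mice (adjusted p = 0.0255 and 0.000304). *Csf3r*, a cytokine receptor gene, rose by 0.31 in SPF and 0.61 in ABX mice (adjusted p = 0.0484 and 1.29e-06). Neutrophil genes summed to 61.1 to 263 CPM in SPF 5xFAD mice and to 144 CPM in mouse FAD_ABX_1151. Their part in the rise of *Csf3r* was not tested. *Gpnmb*, a target of MITF that encodes a lysosomal glycoprotein, and the proton pump gene *Atp6v0d2* also passed in all 3 conditions, and were named after their values were seen.

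*Hhex*, the most abundant factor per kilobase, was slightly lower in 5xFAD mice. In ABX mice it ran from 202 to 259 CPM in WT and from 165 to 205 CPM in 5xFAD mice, and the log2 fold change was -0.30 (SE 0.0904, adjusted p = 0.0247). In SPF mice it was -0.16 (SE 0.110, adjusted p = 0.616) and in GF mice -0.11 (SE 0.100, adjusted p = 0.537), and the average over conditions was -0.19 (SE 0.058, adjusted p = 0.0167). The SPF difference passed under voomWithQualityWeights (-0.23, adjusted p = 0.0454). The ABX change did not pass with no filter on low counts (adjusted p = 0.0658), in a fit of ABX mice alone (adjusted p = 0.06) or without mouse WT_ABX_909 (adjusted p = 0.0671), WT_ABX_932 (adjusted p = 0.0745) or FAD_ABX_1455 (adjusted p = 0.0578), and the average not without FAD_SPF_1148 (-0.16, adjusted p = 0.0676). Border macrophage genes were higher in ABX 5xFAD than in ABX WT mice, and their part in this change was not tested. Of 5 corepressors of HHEX, *Aes* rose by 0.53 in GF and 0.41 in ABX mice (adjusted p = 0.00468 and 0.0168), and *Tle4*, the most abundant, stayed within 0.03 of 0 in all conditions.

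Among 11 other transcription factors of microglial identity, 1 fell in SPF mice, 3 in GF mice and 4 in ABX mice, and 1 rose in ABX mice. Across all tested genes, 4.57%, 15.6% and 14.4% passed in these conditions. *Mef2c*, which supports the mature microglial state, did not pass in any condition, *Mef2a* fell by 0.48 in GF and 0.35 in ABX mice (adjusted p = 0.0109 and 0.0479), and *Irf8* rose by 0.37 in ABX mice (adjusted p = 0.0138). For scale, all 16 genes of a list of activated microglia rose in each of the 3 conditions, with medians of 3.46, 3.51 and 3.26, and 3, 5 and 4 of 11 homeostatic genes fell. The plot of list genes by housing shows these groups beside each other.

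Housing was then compared within 5xFAD mice, which asks whether the absence or depletion of microbes shifts these factors in mice with amyloid pathology. *Myc* was higher in GF than in SPF 5xFAD mice and was the 1 factor of 8 that passed, where 12.8% of all tested genes passed. The values given above do not overlap, with 64.3 CPM as the lowest of GF and 62.5 CPM as the highest of SPF 5xFAD mice, and 10.4% of all tested genes were higher in this way. The log2 fold change was 0.67 (SE 0.191, adjusted p = 0.0197), and group means differed 1.595-fold. An exact two-sided permutation test of *Myc* alone gave p = 0.0357, where 5 against 3 mice cannot go below 0.0179, and 0.151 after adjustment over 72 such tests. *Myc* did not pass without mouse FAD_SPF_1146 (0.67, adjusted p = 0.0795), FAD_SPF_1148 (0.54, adjusted p = 0.147) or FAD_GF_181 (0.51, adjusted p = 0.0636), in a fit of the groups compared (0.65, adjusted p = 0.0607) or with offsets for GC content (0.55, adjusted p = 0.0511).

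With a term for the numbering style of the SPF 5xFAD mice and FAD_ABX_1151, which rests on that ABX mouse, the log2 fold change of *Myc* was 0.13 (adjusted p = 1). None of all 15298 tested genes passed with this term, against 1962 in the reported fit. All SPF 5xFAD mice have this style and no GF mouse has it, so style and housing cannot be told apart here. Neutrophil genes were at 61.1 to 263 CPM in the SPF and at most 0.0495 CPM in the GF 5xFAD mice, and 10 immediate early genes, chosen after the values were seen, summed to 488 to 551 CPM in SPF and 695 to 811 CPM in GF 5xFAD mice. Their part in the difference of *Myc* was not tested. Of the 17 MYC targets, 4 were higher in GF mice and none was lower, where 12.8% of all tested genes passed. Among the 4 were *Nme1* and *Cdk4* (0.76 and 0.51, adjusted p = 0.00474 and 0.00366). The rule for naming list genes takes in those with the smallest p in this same comparison, so they are no separate support.

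*Bhlhe40* was 1.94-fold higher on average in GF than in SPF 5xFAD mice and did not pass (log2 fold change 0.96, SE 0.434, adjusted p = 0.15). Of the 5 GF mice, 4 lay above all SPF mice, and mouse FAD_GF_201 with 34.99 CPM lay within their range. This difference passed under voomWithQualityWeights (1.18, adjusted p = 0.000631), voom (0.96, adjusted p = 0.0196) and a fit of the groups compared (0.94, adjusted p = 0.0489). Over the alternatives its log2 fold change went down to 0.38. Its adjusted p reached 1, with the term for numbering style. *Hif1a* differed by -0.07 (SE 0.161, adjusted p = 0.826) and *Hhex* by -0.07 (SE 0.109, adjusted p = 0.734). *Tfe3* (0.09, adjusted p = 0.609), *Bhlhe41* (-0.11, adjusted p = 0.759), *Mitf* (-0.18, adjusted p = 0.681) and *Tfec* (-1.02, adjusted p = 0.739) did not pass either. With offsets for gene length, *Tfe3* passed (0.37, adjusted p = 0.0341).

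Genes around the factors that did pass between GF and SPF 5xFAD mice pointed both ways, where 12.8% of all tested genes passed. The named ones include those with the smallest p in this same comparison. With the term for numbering style none of all 15298 tested genes passed, and style and housing cannot be told apart here. Of the HIF targets, 2 were higher and 4 lower in GF mice, *Aldoa* by 0.52 (adjusted p = 0.00766) and *Hk2*, a hexokinase gene, by -0.73 (adjusted p = 0.00299), and *P4ha1* was lower by 0.49 (adjusted p = 0.00985). *Dbp*, a clock output activator, was higher (1.11, adjusted p = 0.0194) and *Clock*, a core activator of the clock, lower (-0.83, adjusted p = 0.00572). *Ctsd* (0.53, adjusted p = 0.00131), *Lamtor2* (0.59, adjusted p = 0.0103) and *Lamtor5* (0.53, adjusted p = 0.0273) were higher. Of the identity factors, *Irf8* was higher (0.46, adjusted p = 0.0154) and 5 were lower, among them *Mef2a* (-0.67, adjusted p = 0.00344) and *Mef2c* (-0.31, adjusted p = 0.0134).

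**Figure D3:**
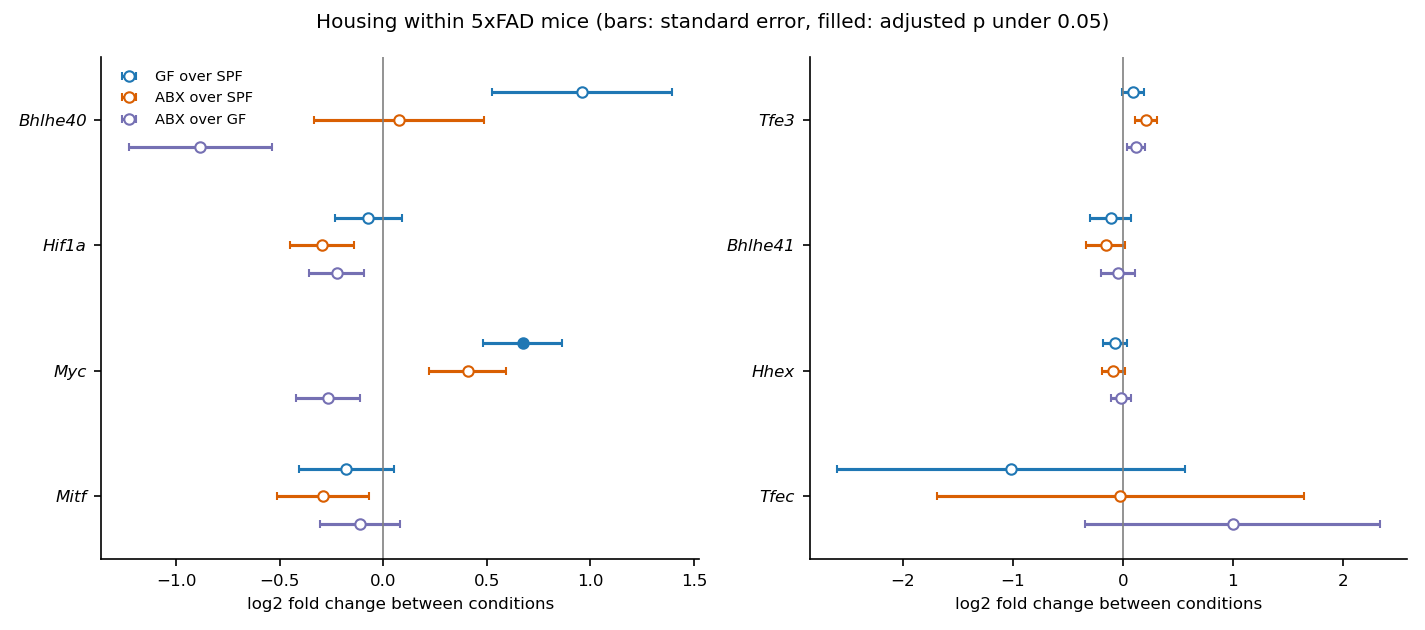
Log2 fold change between housing conditions within 5xFAD mice (horizontal axis, a different range in each panel) for the 8 factors, as GF over SPF, ABX over SPF and ABX over GF. Bars are standard errors and filled points have an adjusted p under 0.05. *Myc* in GF over SPF mice, at 0.67, is the filled point.

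Between ABX and SPF 5xFAD mice, none of the 8 passed by edgeR, DESeq2, voomWithQualityWeights or voom, and none of all 15298 tested genes passed by edgeR (0%). At an unadjusted p under 0.05 there were 2 of the 8, *Myc* (0.41, SE 0.184, adjusted p = 0.666) and *Tfe3* (0.21, SE 0.097, adjusted p = 0.679). *Bhlhe40* was close in both groups, with 0.08 (SE 0.410), and *Hif1a* had -0.30 (SE 0.154, adjusted p = 0.72). Between ABX and GF 5xFAD mice 0 of 8 passed by edgeR, where 10.6% of all genes passed, and 0 of 8 by DESeq2, where 2128 of 15298 passed. By edgeR, 1 had an unadjusted p under 0.05. This was *Bhlhe40*, with a log2 fold change of ABX over GF mice of -0.88 (adjusted p = 0.0998, SE 0.347), which passed under voomWithQualityWeights (adjusted p = 0.0191) and voom (adjusted p = 0.00799). *Myc* had -0.27 (SE 0.154, adjusted p = 0.284) and *Hif1a* -0.22 (SE 0.133, adjusted p = 0.299) in this comparison.

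Housing was also compared within WT mice. *Bhlhe41* was higher in ABX than in GF WT mice (0.57, SE 0.172, adjusted p = 0.0413) and was the 1 factor of 8 that passed, where 6.88% of all tested genes passed. The values were 104, 106, 126, 137 and 204 CPM in ABX and 71.1, 80.4, 93.1 and 119.9 CPM in GF WT mice, and the ranges overlapped. It did not pass without mouse WT_ABX_909, whose 204 CPM is the highest of all 28 mice (0.38, adjusted p = 0.154), nor without WT_ABX_932 (adjusted p = 0.0539), WT_GF_229 (adjusted p = 0.159), WT_GF_230 (adjusted p = 0.119) or WT_GF_231 (adjusted p = 0.0851). Nor did it pass under voom (0.55, adjusted p = 0.054), in a fit of the groups compared (0.58, adjusted p = 0.0636) or with offsets for GC content (0.52, adjusted p = 0.106). Between GF and SPF WT mice 0 of 8 passed by edgeR, DESeq2 and voom and 1 by voomWithQualityWeights, against 1.62% of all genes by edgeR. That one, *Hif1a*, was lower in GF mice without overlap, as 5.24% of all genes were, with -0.35 (SE 0.150, adjusted p = 0.23), and it was the 1 factor with an unadjusted p under 0.05. Between ABX and SPF WT mice 0 of 8 passed by any of the 4 tools, with 0% of all genes by edgeR, and *Tfe3* (-0.19, SE 0.086) was the 1 factor with an unadjusted p under 0.05.

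Whether the change with genotype itself differed between housing conditions was tested by interaction terms. None of the 8 passed by edgeR or DESeq2 for GF against SPF, ABX against SPF or ABX against GF mice. By edgeR 0%, 0% and 1.76% of all 15298 tested genes passed, and by DESeq2 25, 1 and 576 genes. In edgeR, 1, 1 and 4 factors had an unadjusted p under 0.05. For *Myc*, the change with genotype was larger in GF than in SPF mice by 0.93 (SE 0.257, adjusted p = 0.321) and smaller in ABX than in GF mice by a term of -0.72 (SE 0.232, adjusted p = 0.108). Both passed under voomWithQualityWeights (1.07, adjusted p = 0.0197, and -0.80, adjusted p = 0.0473), and the second also without mouse FAD_ABX_1482 (-0.83, adjusted p = 0.0369) and, at the limit, without FAD_GF_201 (-0.81, adjusted p = 0.05). The other factors with an unadjusted p under 0.05 for ABX against GF mice were *Tfe3* (0.36, SE 0.123, adjusted p = 0.124), *Bhlhe41* (-0.62, SE 0.229, adjusted p = 0.162) and *Hif1a* (-0.47, SE 0.200, adjusted p = 0.227). For ABX against SPF mice it was *Tfe3* (0.39, SE 0.130, adjusted p = 0.704).

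**Figure D4:**
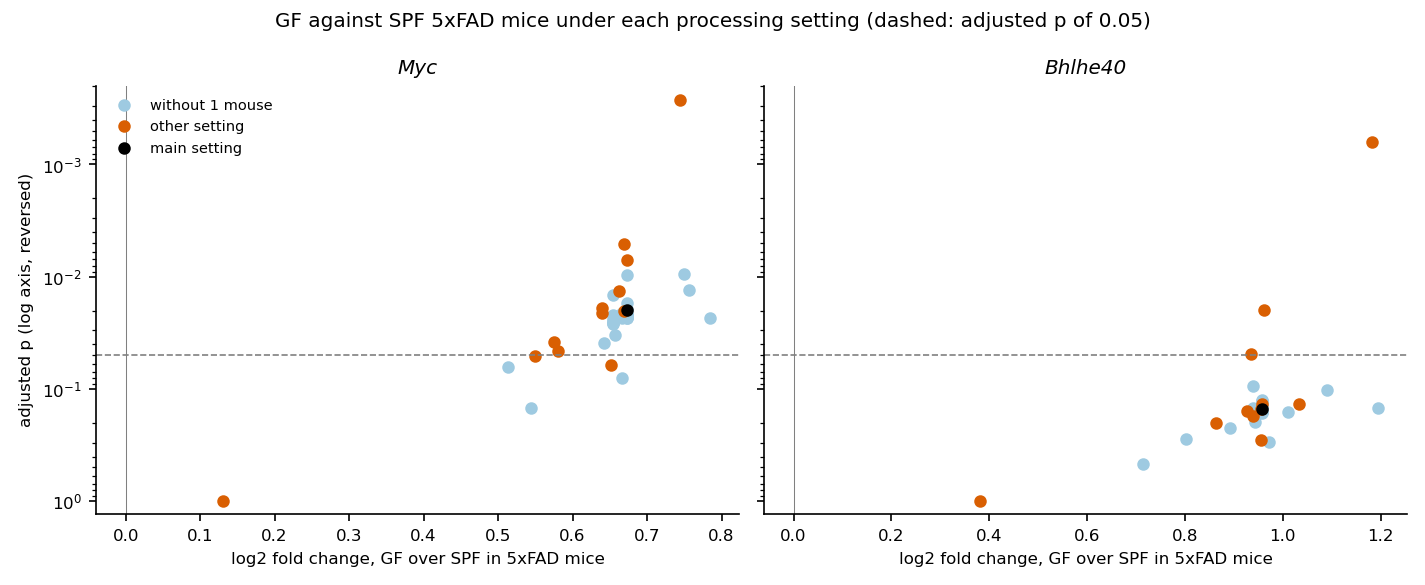
Difference of *Myc* and *Bhlhe40* between GF and SPF 5xFAD mice under every setting: the log2 fold change on the horizontal axis and the adjusted p on a log axis that runs upward to smaller values, with the threshold of 0.05 as a dashed line. Black is the reported fit, light blue leaves out 1 mouse, and orange is another setting. *Myc* falls on both sides of the line, with adjusted p from 0.000264 to 1, and *Bhlhe40* from 0.000631 to 1.

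Over all 6 groups, an F test called 5 of the 8 (*Bhlhe40*, *Hif1a*, *Myc*, *Hhex* and *Tfe3*), where 33.2% of all tested genes passed. The order of the group means, by TMM-scaled CPM, ran from GF over ABX to SPF among 5xFAD mice for both *Bhlhe40* and *Myc*, and then from GF over ABX to SPF among WT mice for *Bhlhe40* and from ABX over SPF to GF for *Myc*. For *Hif1a* it ran from SPF over GF to ABX among 5xFAD mice, and then from SPF over ABX to GF among WT mice. *Hhex* had the reverse pattern, with all WT groups above all 5xFAD groups, from ABX WT at the highest to ABX 5xFAD at the lowest, and so did *Tfec*, from GF WT to GF 5xFAD. *Tfe3* was highest in GF WT and lowest in SPF 5xFAD mice, *Mitf* highest in SPF 5xFAD and lowest in GF WT mice, and *Bhlhe41* highest in ABX WT and lowest in GF WT mice. On CPM of library totals the order was the same for *Bhlhe40*, *Hif1a*, *Myc* and *Tfec* and differed for the other 4. Of 40 pairs of neighbours in these orders over the 8 genes, 3 had p under 0.05 in an exact two-sided permutation test and none after adjustment over the 40. With 6 against 5 mice this test cannot go below 0.002165, so no single pair could pass that adjustment by itself. The 3 were *Bhlhe40* in GF over ABX 5xFAD mice (permutation p = 0.0173, adjusted p = 0.346), *Bhlhe40* in SPF 5xFAD over GF WT mice (permutation p = 0.0286, adjusted p = 0.381) and *Hif1a* in ABX 5xFAD over SPF WT mice (permutation p = 0.00433, adjusted p = 0.173). For *Mitf*, *Tfec*, *Tfe3*, *Bhlhe41*, *Hhex* and *Myc*, no neighbouring groups differed beyond their spread by this test.

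The factors were set beside each other and beside all other genes by the correlation of log2 CPM over the 28 mice, which share 6 groups, and by that of the residuals from the group means. Both are descriptions, without a test. *Bhlhe40* and *Hif1a* had r = 0.89 over the mice and 0.29 in the residuals, *Bhlhe40* and *Myc* 0.71 and 0.00, and *Hif1a* and *Myc* 0.70 and -0.01, so these pairs run together across groups and hardly within them. *Mitf* and *Tfe3*, of one family, ran against each other, with r = -0.52 over the mice and -0.60 in the residuals, and *Tfe3* and *Bhlhe40* had -0.46 and -0.47.

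Among 8930 genes whose log2 CPM averaged 3 or more, those most like *Bhlhe40* over the mice were *Ank* (r = 0.95), *Cst7* (0.95) and *Csf1* (0.95), with 0.25, 0.13 and 0.23 in the residuals. Those most like *Hif1a* were *Slc44a1* (0.95), *Ctsb* (0.95) and *Soat1* (0.94), with residual correlations of 0.66, 0.55 and 0.49. *Myc* was most like *Speg* (0.87), *Slc25a13* (0.85) and *Tsc22d1* (0.85), and *Speg* also led in the residuals (0.83). *Tfe3* was most like *Plod1* (0.87), *Rtn4rl1* (0.87) and *Arvcf* (0.84), of which *Rtn4rl1* led in the residuals (0.84).

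The remaining factors had looser companions. They were *Bdp1* (0.69), *Prrc2c* (0.67) and *Asap1* (0.64) for *Mitf*, *Dtymk* (0.70), *Nudt3* (0.68) and *Rin2* (0.68) for *Bhlhe41*, *Ccz1* (0.77), *Gtf2h2* (0.74) and *St3gal5* (0.74) for *Hhex*, and *Clgn* (0.65), *Wdr41* (0.64) and *Cmtm8* (0.64) for *Tfec*, whose few reads limit any such value. In the residuals the closest genes were *Cnot6l* (0.75) for *Mitf*, *Med1* (0.74) for *Bhlhe41*, *Alad* (0.74) for *Hhex*, *Rce1* (0.69) for *Tfec*, *Ywhaz* (0.74) for *Bhlhe40* and *Heca* (0.80) for *Hif1a*. Of the 24 genes named over the mice, 13 were also among the 3 closest by Spearman's correlation.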

How the data were processed

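RNA-seq libraries of sorted hippocampal microglia from 28 mice were analysed. The authors aligned reads to GRCm38 (STAR 2.7.2) and counted them with featureCounts 1.6.2 on GENCODE M21; the values they deposited are unnormalized read counts for each gene. The submitters' processing notes name the human build GRCh38.p12, whereas the coordinates in the table are those of mouse genes on GRCm38. Groups were taken from the titles, and 92 spike-in entries were left out. The 8 factors and all gene lists were chosen with earlier results of these data known. Some genes are not reported here and were left out of the lists. Genes passing filterByExpr (minimum count 10, total 15) were tested in R 4.3.3 with edgeR 4.0.16: TMM factors, quasi-likelihood test, 1 term per group, Benjamini-Hochberg over 15298 genes, threshold 0.05. A prior count of 2 went into log2 CPM. Exact two-sided permutation tests on single genes were run beside the fit. Alternatives were DESeq2 1.42.0, limma 3.58.1 (voomWithQualityWeights, voom), other factors, filters and offsets, a term for numbering style, 26 mice, and leaving out each mouse. The procedure was tested on simulated data. The genes named by rule were the 8 factors, the 3 genes most like each by correlation, and from each list up to 4 genes, those of highest average level and the 2 with the smallest p in GF against SPF 5xFAD mice. Further list genes were named after their values were seen, as said where they appear. Activated and homeostatic lists are given as counts and medians. Depth limits only *Tfec* and *Bhlhe40* in WT mice.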

Additional observations from a re-analysis of the deposited data

Results flagged for a closer look

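In 40 groups of 4 to 6 mice, the highest or lowest mouse was tested for lying far from the rest by Dixon's 95% critical value, and 3 groups were marked, where chance marks about 1 in 20. For *Tfec*, mouse FAD_GF_182 had 0.227 CPM, next to 0.0519 CPM in the nearest GF 5xFAD mouse, and mouse FAD_ABX_1455 had 0.701 CPM, next to 0.0603 CPM in the nearest ABX 5xFAD mouse. Both rest on at most 17 reads. For *Bhlhe41*, mouse FAD_ABX_1151 had 157 CPM, next to 116 CPM in the nearest ABX 5xFAD mouse. This mouse also held neutrophil transcripts at 144 CPM, and their part in its *Bhlhe41* level was not tested.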

How the results depend on the processing

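No paired analysis was possible because the groups compared share no replicate numbers. Of 50 results for single factors, 27 kept direction and side of the threshold under every alternative they were run with, among 40 alternatives in all, and 45 kept direction. The rise of *Bhlhe40* and *Hif1a* in each condition and of *Myc* in GF mice is among the 27. The number of factors passing in SPF 5xFAD against WT mice was 1 with at least 10 counts in every library (582 of 10750 genes), a filter that removes *Bhlhe40*, and 4 under voomWithQualityWeights (2154 of 15298 genes, against 699 in the reported fit). For GF against SPF 5xFAD mice it was 2 under voomWithQualityWeights, voom and length offsets, where 3872, 2248 and 1297 of all 15298 genes passed. It was 0 with GC offsets (1406 of all genes) or the style term (0 of all genes). It was 1 under both voom fits for ABX against GF 5xFAD mice (1512 of 15298 genes with sample weights and 1935 without). For GF against SPF WT mice it was 1 under voomWithQualityWeights (1631 of 15298 genes) or a fit of the groups compared (1286 of 13395 genes). For ABX against GF WT mice it was 3 under voomWithQualityWeights, 2 with length offsets and 0 under voom or GC offsets, where 2025, 1245, 770 and 234 of 15298 genes passed. It was 1 under voomWithQualityWeights for the interactions of GF with SPF and of ABX with GF mice (116 and 281 of 15298 genes), and 3 for the F test with no filter (5259 of 29674 genes). Leaving out single mice gave 2 to 4 factors for 5xFAD against WT in ABX mice (2 without WT_ABX_909), 3 to 6 for the average over conditions (3 without FAD_SPF_1148), 0 to 1 for GF against SPF 5xFAD, 0 to 1 for ABX against GF WT, 0 to 1 for the interaction of ABX with GF mice and 3 to 6 for the F test (3 without WT_GF_229, WT_GF_231 or FAD_SPF_1148). Signs turned for *Mitf* in ABX mice (-0.0301 in 26 mice, and -0.0210 to 0.313 leaving out single mice, negative without FAD_ABX_1151). They turned for *Hif1a* in GF against SPF 5xFAD mice (0.0686 with length offsets, 0.143 with GC offsets, 0.217 with the style term, and -0.147 to 0.00684 leaving out single mice, positive without FAD_SPF_1144) and for *Tfe3* there (-0.004207 by library size, -0.0007247 with GC offsets, -0.0106 with the style term). In ABX against SPF 5xFAD mice they turned for *Bhlhe40* (-0.420 with the style term, and -0.167 to 0.312 leaving out single mice, negative without FAD_SPF_1148 or FAD_ABX_1460) and *Myc* (-0.0585 with the style term). None of these passed in the reported fit or the alternative, and the cause was not tested. Scaling by library size alone gave a median of all genes of -0.15 in 5xFAD against WT GF mice, against -0.0255 in the reported fit. The order of group means was the same on library totals for 4 of 8 factors, and 13 of 24 most alike genes were also named by Spearman's correlation.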
